A study of Rattus norvegicus with 6 samples.

Results

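Secreted cytokines and regulators of the transcription factor NF-kB were followed by gene symbol across 6 microarrays of rat muscle-derived stem cells. The gene set holds 10 genes: the cytokines Il6, Lif, Il11, Tslp, Il33 and Csf1, the NF-kB feedback genes Nfkbia, Nfkbiz and Tnfaip3, and the adhesion receptor Icam1. Probe sets were chosen by the gene symbol in the platform annotation, and 9 of the 10 genes had a probe set under their symbol, 1 each. The signal of Tnfaip3 was not analysed here. All 9 passed the filter on signal, among 11540 that passed of 18166 named genes. The cells were skeletal muscle-derived stem cells of male rats, grown in culture after isolation by plating, and each library is 1 Affymetrix Rat Gene 2.0 ST array.

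The cholesterol library came from cells given 100 mg/dl cholesterol with cyclodextrin as carrier. The fatty acid library is taken from its title, and the labels name sodium palmitate, a saturated fatty acid salt, as the other lipid, with no separate dose, vehicle or time. The libraries titled OZ serum and LZ serum are called by those titles, and the labels say no more of them. The remaining libraries are titled high glucose control and low glucose control. The labels leave unsaid if cyclodextrin was in the controls, which control belongs to which treatment, and how many animals or cultures gave each RNA. With 1 array per group there was no estimate of replicate error, no test and no p-value. A difference is therefore between arrays and cannot be assigned to a condition. The error in the order of 2 neighbouring levels is unknown. The number of arrays limits the precision.

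NF-kB is held in the cytoplasm by IkB proteins, and kinases that respond to toll-like receptors, interleukin-1 and tumour necrosis factor release it by marking those proteins for destruction. The freed factor enters the nucleus and switches on cytokines, adhesion receptors and its own inhibitors, so that the inhibitors act as negative feedback. In muscle and connective tissue, stromal cells are a source of cytokines that act on leukocytes, on neighbouring fibroblasts and on muscle progenitors.

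The start-site regions of several of these genes are shown because they carry letters that match the sequence to which NF-kB binds. A window from RefSeq (build GRCr8), from 250 bases before to 50 bases after an annotated start, was found for 8 of the 10 genes, Tnfaip3 included, and Tslp and Il33 had a pair of windows each, making 10 windows. A loose form of the kB site was the letters GGG, any 5 bases and CC on either strand. It stood in 7 of these 8 genes and in 8 of the 10 windows, against 47.3% of 33469 windows of 300 bases. The stricter kB consensus was GGGRNWYYCC on either strand, where R is A or G, W is A or T, Y is C or T and N is any base. Every match of it also matches the loose form. It stood in 5 of the 8 genes (Tslp, Nfkbiz, Nfkbia, Il6 and Tnfaip3) and in 5 of the 10 windows, against 4.18% of all windows. The genes were gathered as NF-kB genes, so this share describes the set and is no independent support. The AP-1 letters TGANTCA were found in 2 of the 8 genes and 2 of the 10 windows (7.33% of all windows). The C/EBP letters TTNNGNAA were found in 4 of the 8 genes and 5 of the 10 windows (41.3%), both strands searched. A match is a run of letters and not a measured binding site.

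Windows of the 4 measured genes with a kB consensus match follow, 5′ to 3′ along the gene, with the match in capitals, for Tslp at chr18:24723740-24724039 (plus strand), Nfkbiz at chr11:58251471-58251770 (plus strand), Nfkbia at chr6:78597023-78597322 (minus strand) and Il6 at chr4:5894526-5894825 (minus strand).
Tslp: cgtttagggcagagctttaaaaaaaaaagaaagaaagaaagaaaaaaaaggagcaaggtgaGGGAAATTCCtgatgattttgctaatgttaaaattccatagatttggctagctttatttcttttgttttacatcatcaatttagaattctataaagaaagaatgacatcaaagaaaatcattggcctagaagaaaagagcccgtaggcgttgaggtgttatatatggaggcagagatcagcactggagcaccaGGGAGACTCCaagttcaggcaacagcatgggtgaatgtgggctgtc
Nfkbiz: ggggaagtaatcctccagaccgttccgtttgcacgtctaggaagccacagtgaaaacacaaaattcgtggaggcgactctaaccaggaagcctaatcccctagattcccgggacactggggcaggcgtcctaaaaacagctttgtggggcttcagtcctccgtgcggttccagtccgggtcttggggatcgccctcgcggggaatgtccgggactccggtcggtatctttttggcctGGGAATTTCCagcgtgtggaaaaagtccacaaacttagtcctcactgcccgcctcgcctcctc
Nfkbia: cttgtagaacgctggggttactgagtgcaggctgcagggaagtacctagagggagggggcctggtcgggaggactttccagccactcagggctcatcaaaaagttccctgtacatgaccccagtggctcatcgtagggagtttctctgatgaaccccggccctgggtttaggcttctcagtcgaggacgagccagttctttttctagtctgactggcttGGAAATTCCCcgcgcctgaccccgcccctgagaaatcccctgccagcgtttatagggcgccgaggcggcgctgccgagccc
Il6: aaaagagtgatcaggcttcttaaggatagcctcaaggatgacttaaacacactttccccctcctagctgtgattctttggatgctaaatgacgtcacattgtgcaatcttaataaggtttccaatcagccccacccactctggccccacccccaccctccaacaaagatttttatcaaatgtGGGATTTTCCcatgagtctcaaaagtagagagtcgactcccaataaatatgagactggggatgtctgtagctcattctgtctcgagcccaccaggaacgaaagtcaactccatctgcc

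Counting the first transcribed base as 1, the matches begin at -189 and at 5 in Tslp, at -13 in Nfkbiz, at -31 in Nfkbia and at -68 in Il6. The Il6 match lies in the short region ahead of the start where the NF-kB site of this gene is known from human and mouse. The second Tslp window held loose matches only.

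Of the 9 measured genes, 6 were higher in both lipid libraries than in all 4 other libraries: Lif, Tslp, Csf1, Nfkbia, Nfkbiz and Icam1. This order was found in 1799 of the 11540 genes (15.6%). Il33 had the opposite order, with both lipid libraries below the other 4 (13.2% of all genes), while Il6 and Il11 had neither. The fatty acid library held the highest value for 6 genes (30% of all genes), the cholesterol library for Icam1, the high glucose control for Il6 and the low glucose control for Il33. A serum library was highest for none of the 9 and lowest for 6, OZ serum for Il11, Csf1, Nfkbiz and Icam1 and LZ serum for Lif and Tslp. Of all genes, 9.22% were highest and 20% lowest with OZ serum, and 6.98% highest and 8.73% lowest with LZ serum. Over the 6 libraries, 4 of the 9 genes spanned at least 2-fold (Il6, Tslp, Csf1 and Nfkbiz), against 7.49% of all tested genes. The median range of the 9 was 0.99 on the log2 scale against 0.41 for all tested genes. The genes were chosen with earlier results of these data known. The shares of the 9 set against all genes, here and below, therefore describe the set and are no independent support.

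**Figure D1:**
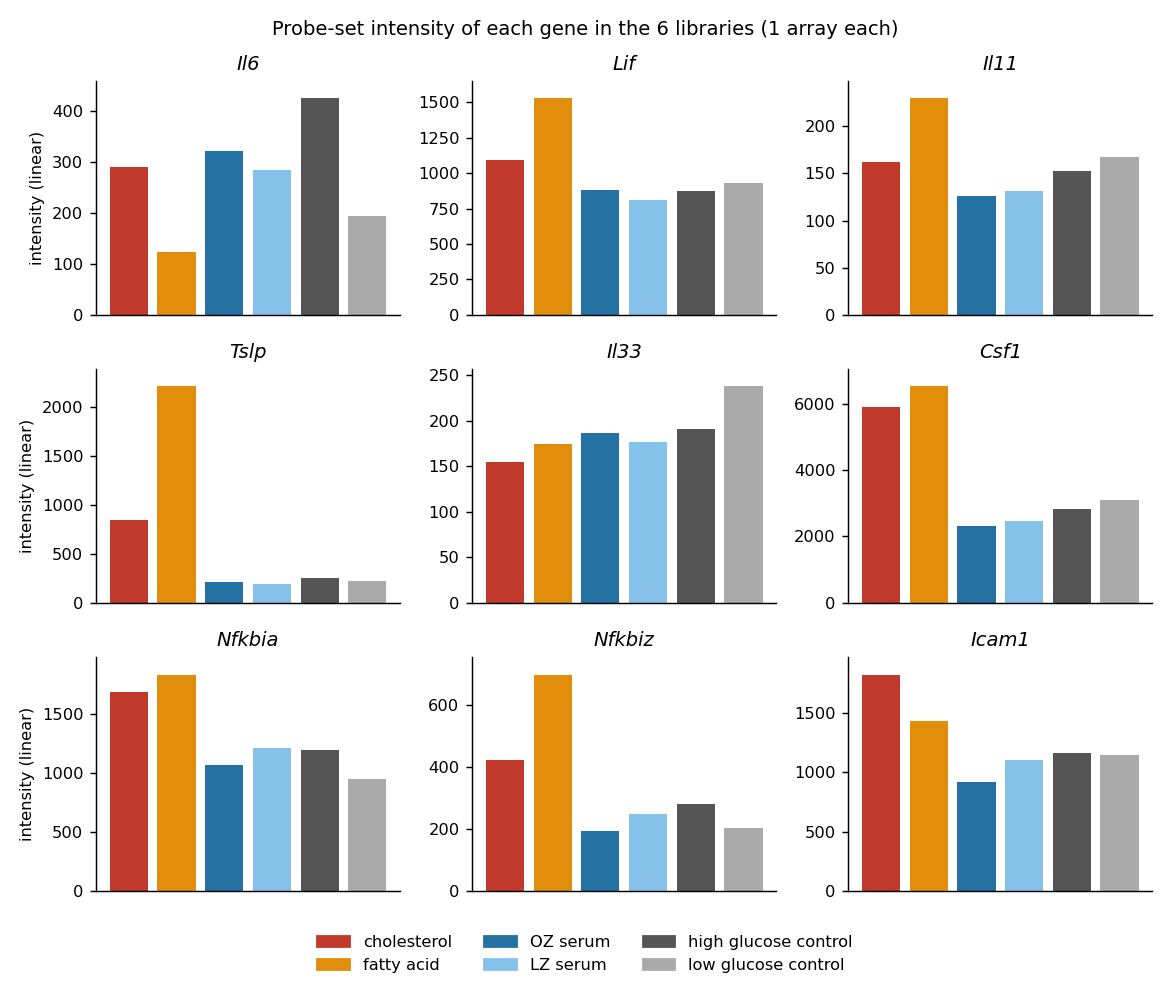
Probe-set intensity on a linear scale (vertical axis, from 0, a scale of its own in each panel) of the 9 measured genes, with 1 bar per library, which is 1 array, so there are no error bars. Tslp stands at 849 with cholesterol and 2206 with fatty acid, and between 196 and 250.4 in the other 4 libraries; Il6 is lowest with fatty acid, at 124.

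Tslp encodes thymic stromal lymphopoietin, a cytokine of epithelial and stromal cells that acts on dendritic cells and innate lymphocytes. Its probe set (17722195) had an intensity of 849 with cholesterol, 2206 with fatty acid, 211 with OZ serum, 196 with LZ serum, 250.4 in the high glucose control and 227 in the low glucose control. The lipid libraries thus stood apart from 4 libraries that lay close together. The fatty acid library was 8.81-fold above the high and 9.73-fold above the low glucose control, and the cholesterol library 3.39-fold and 3.75-fold. Its distance from the nearer control had rank 2 from the top of 11540 genes with fatty acid and rank 9 with cholesterol. The range of Tslp over the libraries, 11.3-fold, was matched or exceeded by 0.139% of all tested genes. The fatty acid library was 2.60-fold above the cholesterol library, the widest gap between the lipids among the 9 genes. Both serum libraries lay below both controls, by 0.10 at the least on the log2 scale.

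Csf1 encodes macrophage colony-stimulating factor, which keeps monocytes and macrophages alive and dividing. Its intensity was 5898 with cholesterol, 6522 with fatty acid, 2307 with OZ serum, 2459.9 with LZ serum, 2826 in the high glucose control and 3099 in the low glucose control. Unlike Tslp, it had nearly the same level in both lipid libraries, 1.11-fold higher with fatty acid. Against the nearer control the fatty acid library was 2.10-fold higher and the cholesterol library 1.90-fold higher, so these close values fall on either side of the 2-fold line. The serum libraries were below both controls by at least 0.20 on the log2 scale, or 1.15-fold. In that comparison 0.806% of all genes were as low or lower, and 19.7% were lower by any size. Csf1r, the receptor for this cytokine and a marker of macrophages, lay below the median of all values in all 6 libraries.

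Il6, Lif and Il11 belong to the interleukin-6 family, whose receptors share the subunit Il6st, or gp130. They did not move together. Il6, a cytokine that contracting muscle and activated fibroblasts release, had an intensity of 289.7 with cholesterol, 124 with fatty acid, 322 with OZ serum, 284 with LZ serum, 426 in the high glucose control and 195 in the low glucose control. It was the only one of the 9 with its lowest value in the fatty acid library, 3.43-fold below the high and 1.57-fold below the low glucose control. The cholesterol value lay between the controls, which themselves differed 2.18-fold for this gene, the largest gap between the controls among the 9. A reading of Il6 against a single control therefore depends on which control is used, and its fatty acid value was under 2-fold against the low glucose control.

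Lif encodes leukemia inhibitory factor, which supports the proliferation of myoblasts. Its intensity was 1094 with cholesterol, 1529 with fatty acid, 883 with OZ serum, 808 with LZ serum, 876 in the high glucose control and 932 in the low glucose control. Both lipid libraries were the highest, and the other 4 libraries lay close to each other. The fatty acid library was 1.64-fold and the cholesterol library 1.17-fold above the nearer control. Il11, known for its action on fibroblasts, stood at 163 with cholesterol, 229.8 with fatty acid, 126 with OZ serum, 131 with LZ serum, 153 in the high glucose control and 167 in the low glucose control. Only the fatty acid library exceeded both controls, by 1.37-fold at the least, and the cholesterol value lay between them. Both serum libraries were below both controls for Il11, by 0.22 on the log2 scale at the least, which 0.615% of all genes matched or passed. This was 1.16-fold, at levels near the median intensity of all values (107), and 19.7% of all genes were lower by any size.

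Il33 encodes an alarmin of the interleukin-1 family that is stored in the nucleus and signals through the receptor Il1rl1, or ST2. Its intensity was 155 with cholesterol, 174 with fatty acid, 186 with OZ serum, 176 with LZ serum, 191 in the high glucose control and 238 in the low glucose control. It had the smallest range of the 9 genes, 1.53-fold, with cholesterol lowest. The differences from the nearer control were -0.30 with cholesterol and -0.13 with fatty acid on the log2 scale, and the fatty acid library lay below the lower serum library by 0.02. Il1rl1 itself, named here after its values were seen, had a log2 signal of 10.67 with cholesterol, 11.50 with fatty acid, 12.33 with OZ serum, 11.94 with LZ serum, 11.63 in the high glucose control and 12.61 in the low glucose control. It was also lowest with cholesterol, 1.95-fold below the nearer control, and the controls differed by 1.97-fold.

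Nfkbia encodes IkB-alpha, the inhibitor that retains NF-kB in the cytoplasm and is itself induced by it. Its intensity was 1687 with cholesterol, 1837 with fatty acid, 1072 with OZ serum, 1217 with LZ serum, 1193 in the high glucose control and 949.5 in the low glucose control. The lower of the lipid libraries was 1.39-fold above the highest of the other 4. Against the nearer control the fatty acid library was 1.54-fold and the cholesterol library 1.41-fold higher, with 2.46% and 2.06% of all genes as high or higher.

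Nfkbiz encodes IkB-zeta, a nuclear IkB protein that is induced early and is needed in mouse macrophages for a later set of NF-kB targets, Il6 among them. Its intensity was 421 with cholesterol, 699 with fatty acid, 192 with OZ serum, 248 with LZ serum, 281 in the high glucose control and 203 in the low glucose control. The lipid libraries were again above the rest, with fatty acid 1.66-fold above cholesterol. The fatty acid library was 2.48-fold and 3.44-fold above the high and low glucose controls, and the cholesterol library 1.498-fold and 2.08-fold. In these libraries Nfkbiz and Il6 stood in opposite order with fatty acid, where Nfkbiz was highest and Il6 lowest of the 6. The Il6 intensity there, 124, was near the median of all values (107), and a link between these genes was not tested.

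Icam1 encodes the intercellular adhesion molecule that leukocyte integrins bind. Its intensity was 1823 with cholesterol, 1427 with fatty acid, 916 with OZ serum, 1099 with LZ serum, 1165 in the high glucose control and 1144 in the low glucose control. It was the only gene of the 9 that was highest with cholesterol, 1.56-fold above the nearer control, whereas the fatty acid library was 1.23-fold above it. The controls differed by 1.02-fold.

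**Figure D2:**
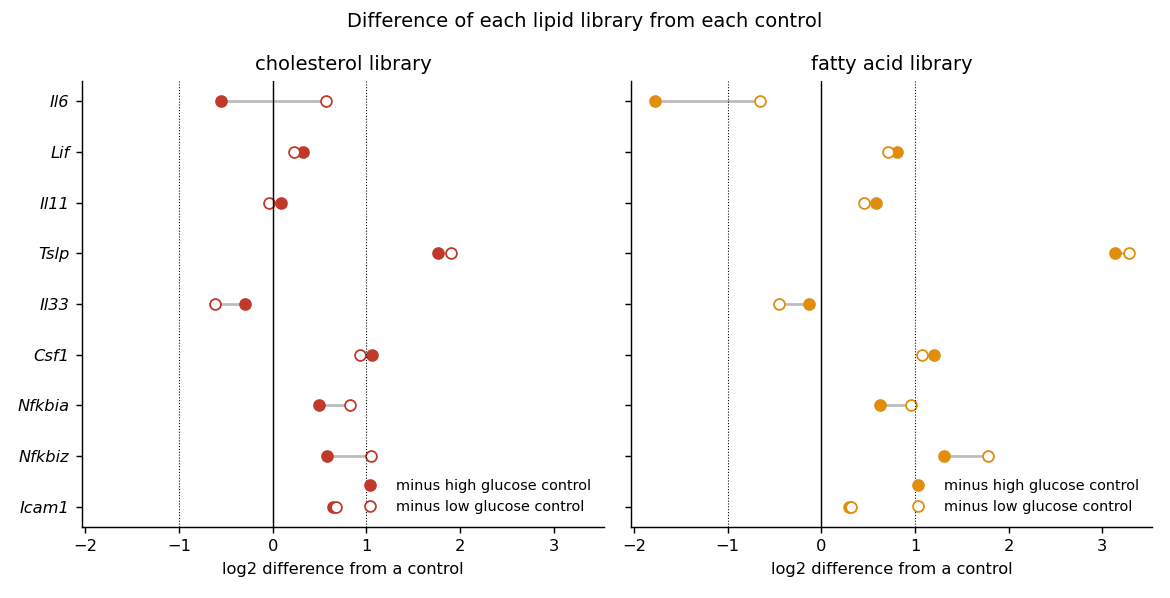
Log2 difference of the cholesterol library (left) and the fatty acid library (right) from the high glucose control (filled points) and the low glucose control (open points) for the 9 genes, with dotted lines at 2-fold. The points of a gene lie close together where the controls agree, as for Tslp (cholesterol 1.76 and 1.91, fatty acid 3.14 and 3.28), and far apart for Il6, at -0.55 and 0.57 with cholesterol.

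The comparison of cholesterol with both controls asks how these genes stood in that library, where sterol and cyclodextrin carrier cannot be told apart. Counts are of genes that differed from each control by 2-fold or more in 1 direction. Of the 9, only Tslp was counted as higher, where 0.381% of all tested genes were, and none was counted as lower, where 0.806% were. By any size, 6 of the 9 were higher than both controls and 1 lower, against 36.3% and 33.6% of all genes, or 26.5% and 43.7% when each array was centred on its median. The median value of the 9 was 0.50 and that of all genes 0. The leukocyte markers that passed the filter, 5 of 15 annotated, were all higher than both controls (4 of 5 after quantile normalization or median centring), led by Cd68, a lysosomal protein of macrophages, at 2.94-fold. Their summed intensity over the 15 was 2349 with cholesterol against 1708 in the high and 1474 in the low glucose control. Without Cd14, a setting added after the data were seen, it was 1228 against 923 and 957, and this sum still held Cd68. The other markers above the filter exceeded the nearer control by 0.51 (Cd14), 0.16 (Itgal), 0.10 (Tyrobp) and 0.05 (Itgb2) on the log2 scale. Of 7 mesenchymal markers, 6 were lower than both controls with cholesterol and none higher (median -0.19). After quantile normalization 5 were lower and 1 higher, and after cyclic loess 5 were lower and none higher. Their summed intensity was 49567 against 55872 in the high and 53072 in the low glucose control. Ptprc, the pan-leukocyte marker CD45, was at 5.42 against 5.53 and 5.52 on the log2 scale, below the median of all values. In bulk RNA a change in the number of cells of a type and a change in RNA per cell cannot be told apart. The part of these markers in the results was not tested.

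The same question was asked of the fatty acid library. It had 3 of the 9 genes at least 2-fold above both controls, Tslp, Nfkbiz and Csf1, where 0.641% of all genes were, and none at least 2-fold below both, where 2.01% were. By any size, 7 were higher and 2, Il6 and Il33, lower, against 40.4% and 39.7% of all genes. The median value of the 9 was 0.62. Summed leukocyte markers were at 1369 with fatty acid, below the high glucose control at 1708 and the low glucose control at 1474, and 10 of the 15 lay below the median of all values in all 6 libraries. The low sum rested on Cd14, also an NF-kB-activating receptor, at 341 with fatty acid against 785 in the high and 517 in the low glucose control. Without Cd14 the sum was 1028 with fatty acid against 923 and 957. Of the 5 that passed the filter, 4 were higher than both controls, or 3 after quantile normalization, median centring or cyclic loess. Of 7 mesenchymal markers, 5 were lower than both controls with fatty acid and none higher (median -0.54). After quantile normalization or median centring 6 were lower, and after cyclic loess 5 were lower and 1 higher. These markers, abundant in every library, had a summed intensity of 43737 with fatty acid against 55872 in the high and 53072 in the low glucose control. The part of this in the results was not tested. All 5 endothelial markers that were annotated failed the signal filter, and 3 of 5 epithelial markers lay below the median of all values in all 6 libraries.

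**Figure D3:**
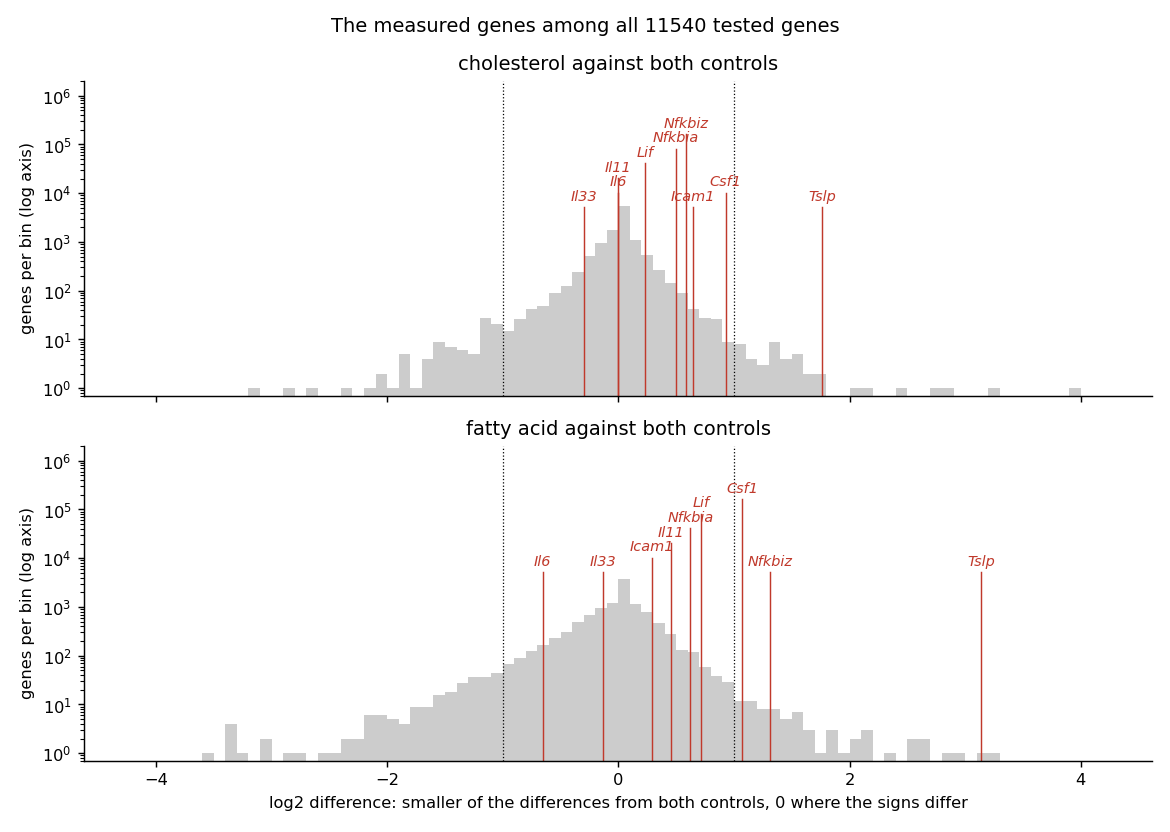
Histogram of the log2 difference from both controls (the smaller of both differences, or 0 where their signs differ) for 11540 genes, with the number of genes per bin on a log axis, for cholesterol (top) and fatty acid (bottom); red lines mark the 9 genes and dotted lines 2-fold. Tslp lies at 1.76 with cholesterol and 3.14 with fatty acid, and Il6 and Il11 lie at 0 with cholesterol because the controls lie on either side of them.

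Set against each other directly, the cholesterol library was at least 2-fold above the fatty acid library in Il6 (2.34-fold), where 1.92% of all genes were, and at least 2-fold below it in Tslp (2.60-fold), where 0.901% were. Of the 9 genes, Il6 and Icam1 were higher with cholesterol and the other 7 lower, against 51.9% and 48% of all genes. Nfkbiz (-0.73), Il11 (-0.50) and Lif (-0.48) were lower by less than 2-fold, and Csf1 (-0.15), Nfkbia (-0.12) and Il33 (-0.17) differed by less than 0.2 on the log2 scale. Both comparisons with controls share the same control arrays, whereas this one uses neither.

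Between the serum libraries, none of the 9 genes was 2-fold apart, as 0% of all genes were higher and 0.026% lower at that size. With OZ serum 4 of the 9 genes were higher and 5 lower, against 41.9% and 58.1% of all genes, or 31.8% and 68.2% when each array was centred on its median. The largest of these differences was in Nfkbiz (-0.37), where 1.35% of all genes were as low or lower, followed by Icam1 (-0.26), Nfkbia (-0.18) and Il6 (0.18). Both serum libraries together were below both controls in 5 of the 9 (Il11, Tslp, Il33, Csf1 and Icam1) and above them in none, against 19.7% and 8.83% of all genes. Median centring added Lif, by 0.02 on the log2 scale, which made 6 of the 9 lower (24.2% of all genes). None of these reached 2-fold, as was the case for 0% of all genes.

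Between the controls, Il6 was the only gene of the 9 at least 2-fold apart, higher in the high glucose control (0.251% of all genes), with rank 17 from the top of 11540. None was 2-fold lower, against 0.104% of all genes. By any size 5 of the 9 were higher and 4 lower, against 48.9% and 51.1%. Nfkbiz (0.47) and Nfkbia (0.33) were also higher in the high glucose control and Il33 (-0.32) lower, while the other 5 differed by at most 0.14 on the log2 scale.

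Other genes of the pathway were read from 7 lists. Their counts stand against 36.3% of all genes higher and 33.6% lower than both controls with cholesterol, and 40.4% higher and 39.7% lower with fatty acid. At 2-fold the shares of all genes were 0.381% higher and 0.806% lower with cholesterol, and 0.641% and 2.01% with fatty acid. At such shares, the absence of 2-fold genes from lists this short says little. Among receptors of these cytokines, 7 of 10 were measured above the filter and none was 2-fold apart from both controls with either lipid. Il6st had log2 values of 12.24 with cholesterol, 12.29 with fatty acid, 12.03 with OZ serum, 12.10 with LZ serum, 12.13 in the high and 12.04 in the low glucose control. Of 20 measured NF-kB subunits and activating kinases, 13 were higher and 2 lower than both controls with cholesterol, while the fatty acid library had 12 higher and 5 lower, none by 2-fold. Their median was 0.09 with cholesterol and 0.06 with fatty acid, where that of all genes was 0 in both. Under median centring these counts were 11 and 6 with each lipid. Of all genes, 26.5% were then higher and 43.7% lower with cholesterol, and 34.4% and 45.4% with fatty acid.

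The other NF-kB inhibitors, 12 of 15 measured, had a median of 0.24 with cholesterol and 0.21 with fatty acid. With cholesterol 10 were higher and 1 lower than both controls, and with fatty acid 9 were higher and 1 lower, where 36.3% and 40.4% of all genes were higher. After quantile normalization, median centring or cyclic loess the cholesterol counts were 9 and 2. In that order, 32.7%, 26.5% and 33.1% of all genes were then higher, and 37.5%, 43.7% and 36.5% lower. Only Tnip3, which encodes a binding partner of the deubiquitinase A20, the Tnfaip3 product, reached 2-fold, at 2.21-fold with cholesterol and 3.90-fold with fatty acid. Its log2 signal was 9.48 with cholesterol, 10.30 with fatty acid, 7.65 with OZ serum, 7.71 with LZ serum, 7.62 in the high and 8.34 in the low glucose control. Among 22 measured NF-kB targets outside the gene set, 13 were higher and 4 lower with cholesterol, 2 by at least 2-fold, the chemokines Cx3cl1 (3.09-fold) and Cxcl1 (2.59-fold). With fatty acid 16 were higher and 3 lower, and the 4 at 2-fold were Cxcl1 (6.38-fold), Cxcl10 (3.71-fold), the metalloproteinase Mmp3 (3.05-fold) and the chemokine Ccl20 (2.62-fold), all higher. Of these targets none was 2-fold lower than both controls with either lipid, where 0.806% (cholesterol) and 2.01% (fatty acid) of all genes were.

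Among 13 measured receptors that activate NF-kB, 7 were higher and 3 lower than both controls with cholesterol, while with fatty acid 4 were higher and 7 lower. With fatty acid the number lower was 5 after quantile normalization, 6 after cyclic loess and 8 after median centring. Of all genes, 37.7%, 40% and 45.4% were lower in these settings. The 4 of 13 higher is near the 40.4% of all genes. Tlr2, a receptor for bacterial lipoproteins, was the only one at 2-fold, 5.56-fold higher with cholesterol and 0.07 above the nearer control on the log2 scale with fatty acid. Of 18 related cytokines, 9 passed the filter and none reached 2-fold. The JAK-STAT list, which carries signals of the interleukin-6 family, had 9 of 16 genes higher with each lipid, 4 lower with cholesterol and 5 lower with fatty acid (all genes 36.3% and 40.4% higher, 33.6% and 39.7% lower), with medians of 0.03 and 0.07 and none at 2-fold. With OZ serum against LZ serum, 11 of 12 NF-kB inhibitors, 16 of 20 subunits and kinases and 14 of 16 JAK-STAT genes were lower. Their medians were -0.08, -0.09 and -0.10 against -0.03 for all genes, of which 58.1% were lower. Also lower were 13 of 22 NF-kB targets, 10 of 13 receptors that activate NF-kB, 5 of 7 cytokine receptors and 5 of 9 related cytokines. Mesenchymal markers, outside these pathway lists, were lower in 7 of 7 (median -0.13). The share of all genes lower was 55.8% after quantile normalization, 68.2% after median centring and 54.2% after cyclic loess. A majority of all genes thus lay on that side in each setting. The counts of inhibitors, subunits and kinases, and JAK-STAT genes were the same after quantile normalization and cyclic loess. After median centring they were 11, 18 and 16.

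**Figure D4:**
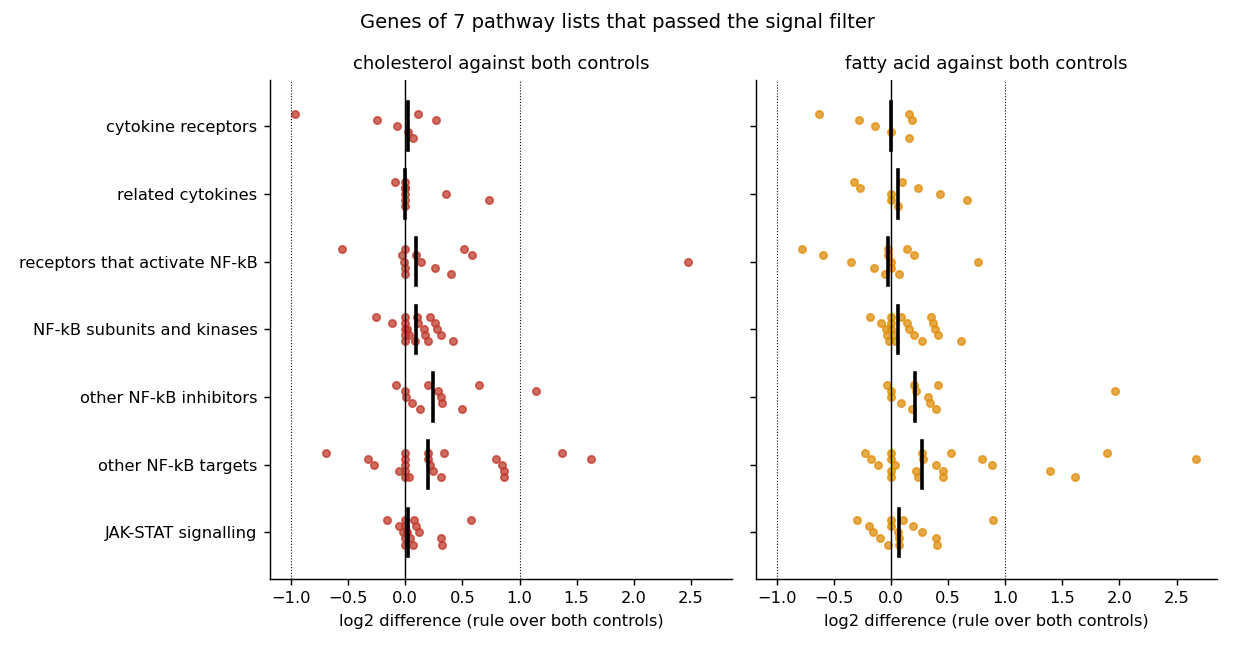
Log2 difference from both controls (horizontal axis) of every gene above the signal filter in 7 pathway lists, for cholesterol (left) and fatty acid (right), with 1 point per gene, a black bar at each list's median and dotted lines at 2-fold. The inhibitor list has medians of 0.24 with cholesterol and 0.21 with fatty acid, and the points past 2-fold include Tlr2 at 2.47 with cholesterol and Cxcl1 at 2.67 with fatty acid.

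The genes whose profiles were nearest to those of the 4 wide-ranging genes were found by the root mean square distance of log2 values over the 6 libraries, after each gene was centred on its own mean. For Tslp the nearest were Cxcl1 (distance 0.22), Tnip3 (0.40) and Rasgrp3 (0.43), where Tslp's own spread on the same measure was 1.31. Cxcl1 is a neutrophil chemokine. For Nfkbiz, with a spread of 0.65, they were Bmp2 (0.10), a bone morphogenetic protein, Ccl20 (0.17) and Tlcd1 (0.17). For Csf1, with a spread of 0.59, they were Egr2 (0.10) and Jun (0.13), which are immediate early transcription factors, and Slfn2 (0.11). For Il6, with a spread of 0.57, they were the surface sialomucin Cd34 (0.17), Pcdhb14 (0.18) and Deptor (0.19), an inhibitor of mTOR. All profiles rest on the same 6 arrays, and a small distance says only that levels ran alike across them.

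**Figure D5:**
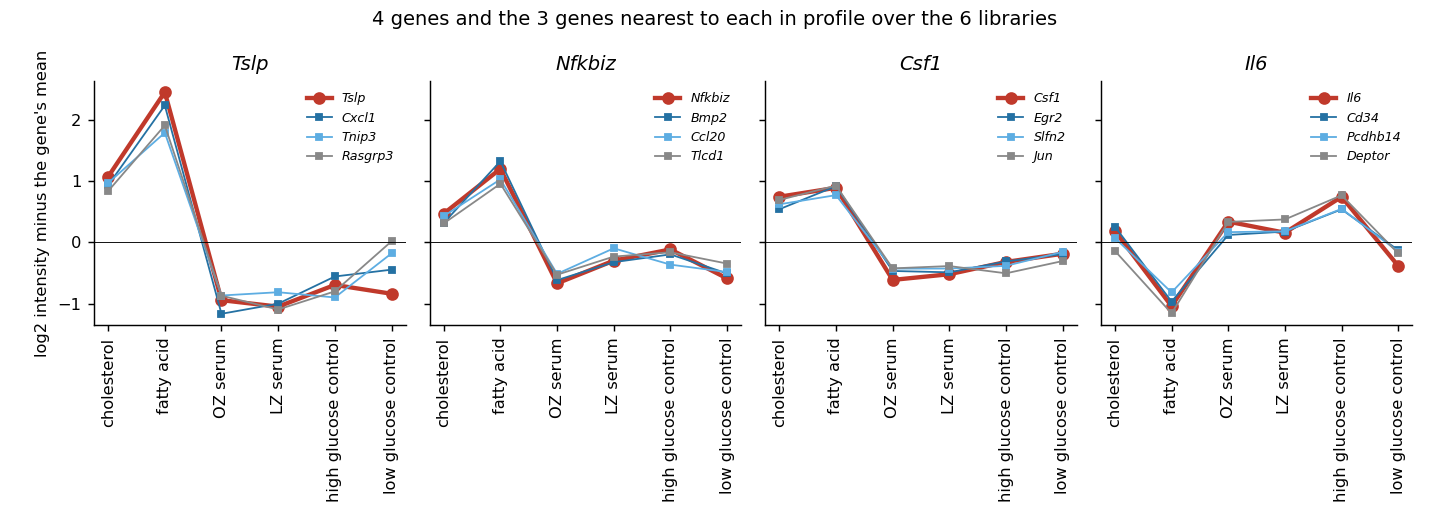
Log2 intensity minus the gene's mean over the 6 libraries (vertical axis) for Tslp, Nfkbiz, Csf1 and Il6 (thick red) and the 3 genes nearest to each; the lines only join libraries, which have no order. Tslp and Cxcl1 have a root mean square distance of 0.22, while Il6 and its neighbours dip with fatty acid.

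Signal was spread alike on all arrays, whose medians ran from 104.6 to 109.2 in intensity over 36685 probe sets. The cells' label was checked against markers: all 7 annotated mesenchymal markers lay above the median of all values in every library, whereas 3 of 7 myogenic markers (Pax7, Des and Itga7) passed the filter and Myod1, Myf5 and Cdh15 lay below that median throughout. Pax7 (6.90 to 7.26) and Des (6.83 to 7.05) lay close to that median, 6.74 on the log2 scale, so passing the filter says little of their expression.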

How the data were processed

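Total RNA of 6 samples was run by a core laboratory on Rat Gene 2.0 ST arrays from Affymetrix, per the labels' protocols. The authors deposited 1 linear intensity for each probe set and array, with nearly equal distributions across arrays. How they summarised, background-corrected or normalized it is not given in the sources used here. Log2 was taken without an offset. Of 36685 probe sets, the platform annotation gives 1 gene for 18511, several for 575 and none for 17599, and only the first kind was used. The annotated Entrez identifiers of all 9 measured genes carried the same symbol in RefSeq. For the 291 genes with more than 1 probe set, the brightest on average was kept, and genes with a mean log2 value of at least 6.74, the median of all values, were kept.

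Groups come from the sample titles, 1 array each, so no test could be run. Where a side held several libraries, a gene's value was the smallest pairwise log2 difference, or 0 where signs differed, counted at 2-fold. Named genes were the gene set, up to 4 genes per pathway list at 2-fold or more with each lipid, the 3 nearest profiles and cell type markers; other names, Il6st, Il1rl1, Il1a and Il7 among them, were picked once their values had been seen. The genes and lists were chosen with earlier results of these data known. Alternatives were quantile normalization, median centring, cyclic loess, no or a stricter signal filter, the mean of probe sets, an offset of 32, a 1.5-fold threshold and the controls taken singly or averaged. A recomputed difference was called moved when it shifted by 1.5-fold or more. Python 3.11.15, numpy 2.4.6, pandas 2.3.3, matplotlib 3.10.9, R 4.3.3 and limma 3.58.1 were used.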

Additional observations from a re-analysis of the deposited data

How the results depend on the processing

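The 216 recomputed differences of the 9 genes (quantile normalization, median centring, cyclic loess, offset of 32) moved by at most 0.18 on the log2 scale, none changed from higher to lower or back and none crossed the 2-fold line. In 1 of them a mixed value took a sign: Lif was lower with both sera than both controls after median centring (-0.02). The mean of probe sets could move none, since each gene has 1. Counts at 2-fold moved with the threshold and the choice of control. At 1.5-fold, 3 genes were higher with cholesterol (157 of all genes, against 44 at 2-fold) and 5 with fatty acid (337, against 74), 1 was lower with fatty acid (707, against 232), and 2 were lower with cholesterol than with fatty acid (497, against 104). With the high glucose control only, 2 were higher with cholesterol and 1, Il6, was lower with fatty acid, which also held against the mean of both controls. With the low glucose control only, 2 were higher with cholesterol. The added gene was Csf1 against the high and Nfkbiz against the low glucose control. Counts over all genes moved likewise. At 1.5-fold, 235 were lower with cholesterol (93 at 2-fold) and 857 higher with cholesterol than with fatty acid (221), 13 higher and 17 lower with OZ than LZ serum (0 and 3), 184 higher and 128 lower in the high than the low glucose control (29 and 12), and 1 each way for the sera against both controls (0 and 0). With the high glucose control only, 75 were higher and 157 lower with cholesterol, and 118 higher and 354 lower with fatty acid. With the low glucose control only, 91 were higher with cholesterol, and 8 were higher and 5 lower with the sera. With the mean of both controls, 71 were higher with cholesterol and 2 lower with the sera. Without the signal filter OZ serum had 9 higher and 6 lower than LZ serum, and 1 lower under the stricter filter or the offset. No paired analysis was possible because each group holds 1 sample. Genes near the median of all values, such as Il11, Il33 and Il6 with fatty acid, have less certain folds.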

Other observations

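Il1a and Il7 were outside the counts of the report because their mean signal lay below the filter, and they were singled out after their values were seen. Il1a encodes interleukin-1 alpha, an alarmin cytokine that activates NF-kB. It had a log2 signal of 8.20 with fatty acid, against 6.16 in the high and 6.63 in the low glucose control, a 2.97-fold difference from the nearer control. With cholesterol it stood at 6.10, with OZ serum at 6.08 and with LZ serum at 6.29, so the fatty acid library alone lay above the median of all values, 6.74. Il7, a lymphocyte growth factor whose receptor chain Il7r also serves Tslp, had a log2 signal of 7.54 with fatty acid and 6.84 with cholesterol, against 6.49 in the high and 6.62 in the low glucose control. Both serum libraries were lower, at 6.17 with OZ serum and 6.10 with LZ serum. Levels below the median of all values make the size of these differences uncertain.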
